A study of Mus musculus with 14 samples.

Results

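Among the regions bound by HA-tagged p53 in E14 mouse embryonic stem cells, 3599 of 11282 lay in chromatin that carried H3K27ac both after vehicle and after doxorubicin. These sites were chosen by measured values, namely the presence of peaks in the authors' lists. A p53 region qualified when it overlapped, by at least 1 bp, an H3K27ac region of the vehicle list and one of the doxorubicin list, and neither a region of the HA ChIP from untagged cells nor an H3K9me3 region of vehicle cells. The levels of H3K27ac and of p53 given here are therefore a description of the sites, and no test was made on them. The cells were grown in 2i and LIF and received 1 µM doxorubicin, or DMSO as the vehicle, for 6 h, were kept for another 6 h without drug, and were harvested at 12 h. H3K27ac and H3K9me3 were profiled in vehicle and in doxorubicin-treated cells, and input chromatin came from doxorubicin-treated cells. The titles of the p53 and untagged HA libraries give no treatment, and the labels do not say how the tag was introduced. Each of the 7 lists was called on 2 pooled libraries, so each treatment had 1 value per region and no spread between replicates was measured.

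p53 is a transcription factor that is kept at a low level by the ubiquitin ligase Mdm2 and is stabilised when DNA is broken, as by doxorubicin, a topoisomerase II poison. It binds DNA as a tetramer at pairs of a 10-base element and activates genes of cell cycle arrest, apoptosis, metabolism and its own feedback. H3K27ac is deposited by the acetyltransferases p300 and CBP at active promoters and enhancers, and p53 can recruit these enzymes. A site with H3K27ac before damage lies in chromatin that was already marked as active.

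The sequence under the p53 summit could be read where a summit fell inside a RefSeq promoter window, which runs from 250 bases before to 50 bases after a gene start (GRCm38.p6, the assembly behind mm10). Of the sites, 39 had a summit in such a window, in 46 windows of 44 genes. Some windows share a site and its sequence, so shares and the interval over windows do not rest on independent sequences. The consensus p53 10-base element, which reads the same on both strands, was present without a mismatch in 27 of the 46 windows (58.7%, 95% Wilson interval 44.3 to 71.7) and in 8.36% of all 32851 windows. A 20-base p53 site, which is a pair of adjacent elements with at most 2 mismatches, was present in 21 of the 46 windows (45.7%) and in 0.80% of all windows. In windows that held the summit of an H3K27ac region without p53, the shares were 8.29% and 0.61% of 1483. Other p53 summits had them too. With H3K27ac in doxorubicin only, 6 and 4 of 11 windows held them, and with H3K27ac in neither treatment 3 and 1 of 6. The elements were thus not particular to these sites. In the 46 windows the 20-base sites lay close to the summits, at a median of 8 bp, and 20 of the 21 were within 50 bp. The 6 windows printed first are those with a 10-base element and the highest p53 enrichment, each at a distinct site. Trp53 and Rps19 follow as promoters where H3K27ac was nearly the same in doxorubicin or lower. Capitals mark the 20 bases that match the p53 site best.
Gm51651, chr1:155056319-155056348, plus strand: ccatcAGACATGCCCAGGCATGTCTtcctc
Ckap2, chr8:22185998-22186027, minus strand: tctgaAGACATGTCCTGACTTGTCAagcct
Gtse1, chr15:85859940-85859969, plus strand: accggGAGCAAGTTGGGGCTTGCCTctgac
Ccng1, chr11:40755447-40755496, minus strand: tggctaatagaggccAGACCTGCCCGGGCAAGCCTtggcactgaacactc
Rps27l, chr9:66946291-66946320, plus strand: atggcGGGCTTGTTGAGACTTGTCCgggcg
Aen, chr7:78895932-78895961, plus strand: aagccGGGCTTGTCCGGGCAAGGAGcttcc
Trp53, chr11:69580269-69580318, plus strand: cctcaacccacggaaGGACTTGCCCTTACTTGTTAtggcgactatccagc
Rps19, chr7:24884798-24884827, plus strand: gcgagCGGCAGGCCCGGACATGCCTgatcg

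These sequences matched the p53 consensus to different degrees. The site of Gm51651, a predicted gene, had 0 mismatches in 20 bases, Gtse1, Ccng1 and Rps27l had 1 each, Ckap2 and Rps19 had 2, and Aen and Trp53 had 3. The p53 summit lay 2 bp from the centre of the Gm51651 site, 4 bp from those of Gtse1 and Ccng1, 6 bp from Ckap2, 8 bp from Aen and Trp53, and 36 bp from Rps27l. At Rps19, which encodes a ribosomal protein, the best match lay 76 bp from the summit. A match is a description of these letters and does not show which bases were bound.

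H3K27ac at the sites was higher in doxorubicin. The measure is the summit pileup, which is the number of sequenced fragments stacked at the highest point of the overlapping H3K27ac region, given per 1000000 fragments of the list and called scaled fragments here (the lists hold 20647895 fragments in vehicle and 17036528 in doxorubicin). The median over the sites was 1.02 scaled fragments in vehicle and 2.29 in doxorubicin, which corresponds to 21 and 39 fragments. Vehicle values ran from 0.436 to 15.8 scaled fragments and doxorubicin values from 0.470 to 16.6. The median doxorubicin over vehicle ratio was 2.08-fold, or 1.05 on the log2 scale (95% interval over sites 1.03 to 1.08, which does not cover the spread between cultures). The middle 50% of the sites had log2 ratios from 0.68 to 1.40. H3K27ac regions found in both treatments with no p53 region and no vehicle H3K9me3 region served as the background (49232 regions). Their median was 0.823 scaled fragments in vehicle and 0.998 in doxorubicin, a log2 ratio of 0.19, so the sites stood 0.87 above the background median.

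The difference was spread over most of the sites. The pileup was at least 1.5-fold higher in doxorubicin at 2856 sites (79.4%, Wilson interval 78.0 to 80.6), against 27.8% of the background regions. It was at least 1.5-fold lower at 15 sites (0.417%), against 9.32% of the background. With a 95% counting interval for each ratio, which covers counting error only, 2464 sites (68.5%) were above 1 and 23 (0.639%) below 1, against 13.4% and 4.01% of the background. Of the 3599 sites, 3449 (95.8%) had a higher value in doxorubicin by any amount, against 63.0% of the background.

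**Figure D1:**
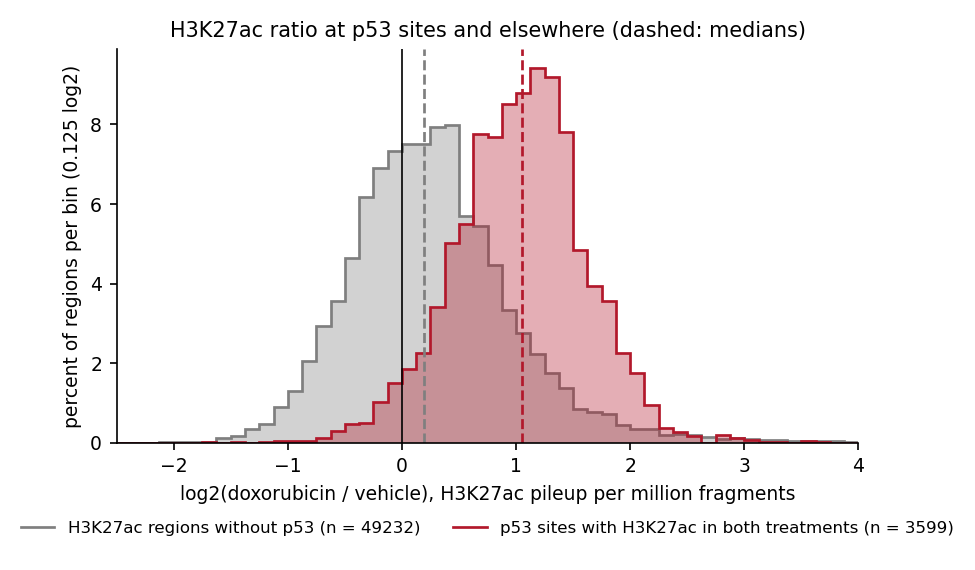
Distribution of the log2 ratio of H3K27ac pileup per 1000000 fragments, doxorubicin over vehicle, as the percent of regions in bins of 0.125, for the 3599 p53 sites (red) and the 49232 H3K27ac regions without p53 (grey). The dashed medians stand at 1.05 and 0.19, and the solid line marks equal values.

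The ratio depended on how much H3K27ac a site had in vehicle cells. Sites with 9 to 13 vehicle fragments had a median ratio of 2.52-fold (756 sites), those with 14 to 20 fragments 2.30-fold (1006), those with 21 to 35 fragments 2.11-fold (905), and those with 36 or more 1.60-fold (932). The background showed the same order at lower values, with 1.48-fold, 1.14-fold, 0.970-fold and 0.836-fold. The distance between sites and background was thus present in each band of vehicle level. In the highest band 56.9% of the sites and 5.62% of the background regions were at least 1.5-fold higher. Since the vehicle value is the denominator of the ratio, the order of the bands is a description only.

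The ratio was also lower near gene starts. Within 1000 bp of a RefSeq start, 211 sites had a median of 1.99 scaled fragments in vehicle and 3.64 in doxorubicin, a ratio of 1.75-fold. Farther away, up to 10000 bp, the median ratio was 2.02-fold (974 sites), up to 50000 bp 2.15-fold (1613), and beyond 50000 bp 2.12-fold (694). The promoter sites were thus those with the most H3K27ac in vehicle. Background medians in the same bands were 1.03-fold, 1.21-fold, 1.21-fold and 1.12-fold. Start positions on chromosome 18 and on an added contig were not used here, which left 3492 sites with a distance.

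**Figure D2:**
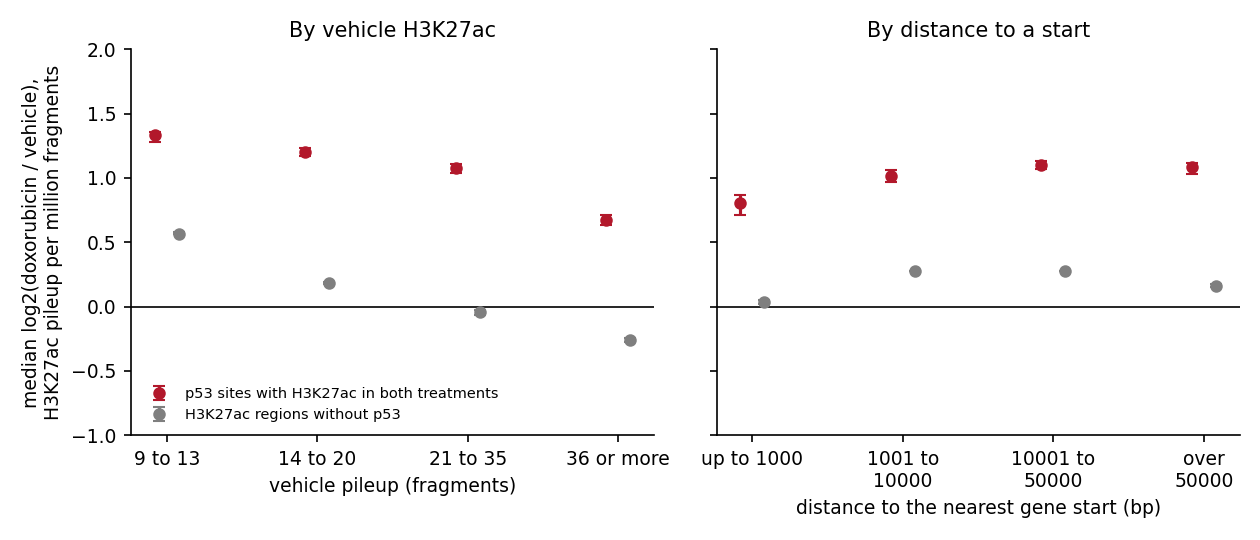
Median log2 ratio of H3K27ac pileup, doxorubicin over vehicle, with its 95% interval over regions, by vehicle pileup in fragments (left) and by distance to the nearest gene start in bp (right). In all 8 bands the p53 sites (red) stand above the H3K27ac regions without p53 (grey).

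Genes of the p53 response were often next to a site. In 4 lists of textbook p53 targets, 35 of 98 matched genes (35.7%) had a site within 5000 bp of a gene end, against 5.17% of all 21896 protein-coding genes. Their 40 sites had a median p53 fold enrichment, the pileup over the input background as the authors' peak caller gave it, of 15.5. H3K27ac was already high there in vehicle, with a median of 3.29 scaled fragments, and was 5.84 in doxorubicin. The median ratio was 1.76-fold. At least 1.5-fold higher values were found at 29 of the 40 sites (72.5%, against 79.4% of all sites). At least 1.5-fold lower values were found at 0 (against 0.417% of all sites). The counting interval lay above 1 at 32 of the 40 (against 68.5% of all sites). The 27 of these sites with 36 or more vehicle fragments had a median ratio of 1.58-fold, close to the 1.60-fold of all sites in that band, and the other 13 had 2.14-fold.

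Feedback regulators and relatives of p53 had sites at 10 of 19 genes. Of their 13 sites, 6 were at least 1.5-fold higher (46.2%, against 79.4% of all sites) and the median ratio was 1.47-fold, with a range of 1.13 to 3.98. Most of the 13 had 36 or more vehicle fragments, a band where 56.9% of all sites were at least 1.5-fold higher. Mdm2, whose product degrades p53, had 2 sites inside 1 H3K27ac region with 6.78 scaled fragments in vehicle and 10.3 in doxorubicin (1.51-fold, counting interval 1.21 to 1.91). Ccng1, which encodes cyclin G1, had 8.09 and 10.9 (1.34-fold, 1.08 to 1.67). Trp53inp1, which encodes a stress protein that promotes p53 activity, had the highest doxorubicin value of the list, 8.77 in vehicle and 12.9 in doxorubicin. Aen, which encodes an apoptosis-enhancing nuclease, had 6.34 and 11.9 (1.87-fold, 1.49 to 2.35). Eda2r, which encodes a receptor of the tumour necrosis factor receptor family, had 3.20 and 4.64 (1.45-fold). At the highest summits the intervals of these genes lay above 1. At the summits nearest to p53, 1 of the 2 Mdm2 sites had 106 and 87 fragments (0.995-fold, 0.740 to 1.33) and 1 of the 2 Trp53inp1 sites 52 and 36 (0.839-fold, 0.533 to 1.31), while the other site of each gene kept its value.

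The Trp53 gene had 2 sites that behaved differently. The site 62 bp from the gene end shared with Wrap53, whose start is next to that of Trp53, had 4.26 scaled fragments in vehicle and 4.81 in doxorubicin (1.13-fold, counting interval 0.826 to 1.54), a difference within counting error. The site 3128 bp from the gene end had 1.21 and 4.81 (3.98-fold), and it lay nearer to an end of Wrap53, at 3030 bp. In doxorubicin both sites lay in the same H3K27ac region of 7810 bp, so they took the same doxorubicin value. At the summits nearest to p53 the ratios were 0.892-fold and 3.31-fold, so the order of the pair did not rest on that shared region.

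Growth arrest genes had sites at 9 of 20 genes, and 8 of their 10 sites were at least 1.5-fold higher, a share near the 79.4% of all sites. Plk2, which encodes a stress-responsive polo-like kinase, had 2.42 scaled fragments in vehicle and 6.16 in doxorubicin at the site 97 bp from its end (2.55-fold, counting interval 1.80 to 3.64). Gtse1, which encodes a protein that binds p53 in G2 phase, had 5.96 and 9.27 (1.56-fold), and Ckap2, which encodes a spindle protein, had 4.02 and 6.75 (1.68-fold, and 2.61-fold at the nearest summits). Btg2, an antiproliferative gene, had 3.54 and 5.58 (1.58-fold, and 1.25-fold at the nearest summits, 0.890 to 1.74). Zfp365 had 1.02 and 2.52 (2.48-fold). The site at Cdkn1a, the gene of the cyclin-dependent kinase inhibitor p21, was one of the least changed, with 6.05 and 6.75 (1.12-fold, 0.858 to 1.45). Its ratio was below the median of all background regions, 1.14-fold. It was above the 0.836-fold of background regions with 36 or more vehicle fragments, the band of this site with its 125. The site lies within the gene on chromosome 17 from 29094225 to 29094758 (mm10), 3532 bp from a gene end. The stronger p53 region at the Cdkn1a end, with a fold enrichment of 64.2, overlapped vehicle H3K9me3 and was not among the sites. Prdm1 had the only site of the 40 with a lower value in doxorubicin, 1.11 and 1.06 scaled fragments, a difference within counting error.

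Apoptosis genes had sites at 5 of 23 genes, and 5 of the 6 sites were at least 1.5-fold higher (83.3%, near the 79.4% of all sites). Pmaip1, which encodes the BH3-only protein Noxa, had the largest ratio of the 4 lists at the highest summits. Its site 168 bp from the gene end had 13 fragments in vehicle and 55 in doxorubicin, or 0.630 and 3.23 scaled fragments (5.13-fold, counting interval 2.77 to 10.2), and its other site had 0.533 and 1.70 (3.20-fold). Bbc3, which encodes Puma, stood at the other end with 8.14 and 10.3 scaled fragments (1.26-fold, 1.02 to 1.57). Bax, which encodes the pore-forming effector of apoptosis, had 5.04 and 8.10 (1.61-fold), and Pidd1, which encodes a death domain protein, had 3.63 and 8.16 (2.25-fold). At the highest summits Bbc3 and Bax, with the most H3K27ac in vehicle, had the smallest ratios in this list. At the nearest summits Siva1 had the smallest, 0.650-fold (0.369 to 1.12).

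Metabolism, stress and repair genes had sites at 11 of 36 genes, and 10 of their 11 sites were at least 1.5-fold higher (90.9%, against 79.4% of all sites), with a median ratio of 2.00-fold, below the 2.08-fold of all sites. Ulk1, which encodes an autophagy kinase, had 1.94 scaled fragments in vehicle and 6.46 in doxorubicin (3.33-fold, counting interval 2.30 to 4.91). Its highest doxorubicin summit lay 12693 bp from p53, and the nearest summits gave 2.85-fold (1.95 to 4.23). Ercc5, which encodes a nuclease of nucleotide excision repair, had 1.21 and 3.82 (3.15-fold). Ephx1, which encodes an epoxide hydrolase, had 2.62 and 6.10 (2.33-fold, and 4.85-fold at the nearest summits), and Polk, which encodes a translesion polymerase, had 2.42 and 5.28 (2.18-fold). Sco2, needed for assembly of cytochrome c oxidase, had 3.20 and 6.40 (2.00-fold). Sesn2, a sestrin that restrains mTORC1, was the exception at the highest summits with 8.23 and 9.45 (1.15-fold, 0.919 to 1.43). At the nearest summits Sesn2 had 93 and 117 fragments (1.52-fold, 1.15 to 2.02).

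**Figure D3:**
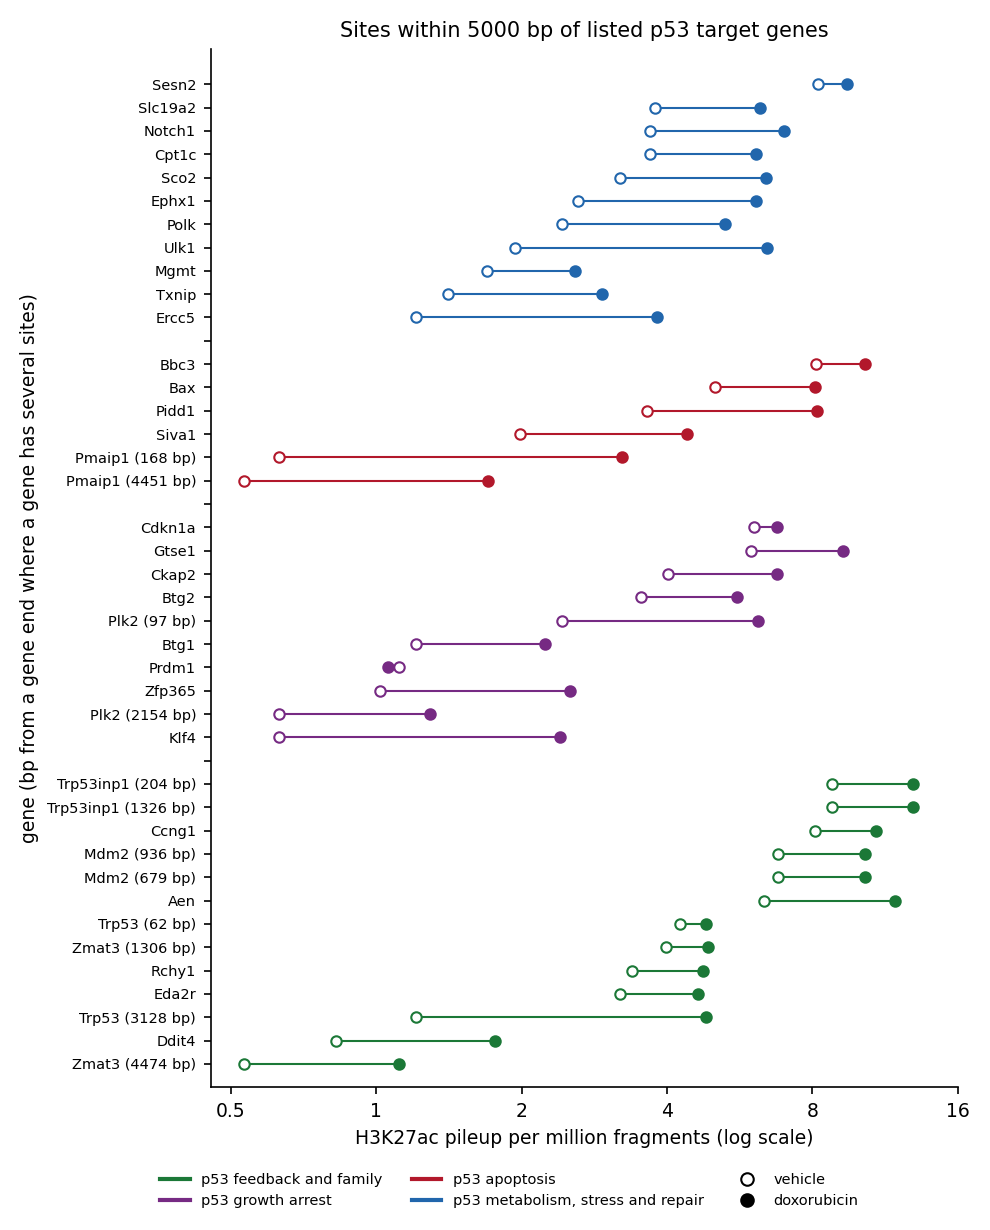
H3K27ac pileup per 1000000 fragments (log axis) in vehicle (open) and doxorubicin (filled) at the 40 sites within 5000 bp of a gene of the 4 p53 lists, coloured by list. The filled point lies to the right at 39 of the 40 sites, and Prdm1 is the exception. Of all sites, 95.8% had a higher value in doxorubicin.

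Few genes of the other lists had a site. Pluripotency genes had 3 of 44, although 38 of them carried H3K27ac within 1000 bp of a gene end in each treatment. At Sox2, a core pluripotency factor, the value was 9.98 scaled fragments in vehicle and 8.51 in doxorubicin (0.853-fold, counting interval 0.685 to 1.06), and the summits used lay about 4 kb from the p53 summit, at 4088 bp and 4006 bp. Klf4, a reprogramming factor that is also a growth arrest gene, had 0.630 and 2.41 (3.82-fold, 2.01 to 7.77), and Gdf3, a growth factor of the TGF-beta family, had 3.20 and 4.70 (1.47-fold). At the nearest summits Gdf3 had 66 and 46 fragments (0.845-fold, 0.567 to 1.25), so its direction turned with the summit. Its vehicle summit was the same, 367 bp from p53, while the doxorubicin summit changed from 356 bp to 274 bp. Among Polycomb and other chromatin genes, Crebbp, which encodes the acetyltransferase CBP, had 1.21 and 3.70 scaled fragments (3.05-fold). Among DNA repair genes, Xrcc1, which encodes a scaffold of single-strand break repair, had a ratio of 1.71-fold. The lineage, 2-cell-like and fibroblast lists had 1 gene each, Neurod1 (1.92-fold), Zfp750 (2.03-fold) and Mmp2 (2.12-fold). The shares of these lists ran from 2.63% to 6.82%, near the 5.17% of all protein-coding genes.

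As for the identity of the cells, 8 of 27 fibroblast and extracellular matrix genes and 17 of 38 lineage regulators carried vehicle H3K27ac within 1000 bp of a gene end, and 16 and 23 did in doxorubicin. Of all protein-coding genes 52.3% did in vehicle and 56.8% in doxorubicin, where the list holds 112259 regions against 82177. Their part in the values at the sites was not tested.

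At 9 of the 10 sites with the highest ratios next to genes, the doxorubicin region was longer than the 2241 bp median of the sites, and at Myot, with 833 bp, it was shorter. The site within Cops3 (chromosome 11, 59816383 to 59816883), which encodes a subunit of the COP9 signalosome, had 24 fragments in vehicle and 165 in doxorubicin (8.33-fold, counting interval 5.41 to 13.4). There the H3K27ac region was 1344 bp long in vehicle and 9145 bp in doxorubicin, and the highest doxorubicin summit lay 6734 bp from p53. At the summits nearest to p53 the values were 24 and 42 fragments (2.12-fold, 1.26 to 3.66). Rbl2, which encodes the pocket protein p130, had 9 and 56 fragments (7.54-fold) and at the nearest summits 9 and 28 (3.77-fold). Rlf, Cdc23, Gm16286 and Pde1b likewise went from between 5.93-fold and 7.01-fold to between 2.10-fold and 2.42-fold. In contrast, the highest and nearest summits were the same at C1rb, a complement protease gene (chromosome 6, 124572259 to 124573530), with 15 and 85 fragments (6.87-fold, 3.94 to 12.8). This was also so at Myot, which encodes a sarcomere protein, with 11 and 49 (5.40-fold). Rin1, which encodes a Ras effector, had 21 and 93 fragments (5.37-fold) and 7.04-fold at the nearest summits. Snx20, a sorting nexin gene, had 22 and 96 fragments (5.29-fold) and 3.64-fold.

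The lowest ratios next to genes were small in size and depended in part on the summit used. Izumo2, a member of a sperm protein family (chromosome 7, 44708016 to 44708491), had 115 fragments in vehicle and 64 in doxorubicin (0.674-fold, counting interval 0.489 to 0.923), and 0.653-fold at the nearest summits. Frmd8 had 201 and 121 fragments (0.730-fold, 0.577 to 0.919), with the same summits. Tmbim1 had 68 and 34 fragments (0.606-fold, 0.389 to 0.928), but its highest vehicle summit lay 2518 bp from p53 and the nearest summits gave 1.51-fold. At Ash2l, which encodes a subunit of histone H3K4 methyltransferases, 0.701-fold became 1.62-fold, at Atp5d, an ATP synthase gene, 0.742-fold became 2.17-fold, and at Nphs1, which encodes nephrin, 0.740-fold became 1.17-fold. B3gnt6 (0.651-fold), Rnf222 (0.716-fold), Cdk6, a cell cycle kinase gene (0.727-fold), and Mat2a, which encodes a synthase of S-adenosylmethionine (0.729-fold), were lower too, and of these only the interval of Mat2a, 0.548 to 0.964, lay below 1. At the nearest summits Mat2a had 40 and 33 fragments, a ratio of 1.00 (0.611 to 1.63). The p53 fold enrichment of these 10 sites was at most 8.62.

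**Figure D4:**
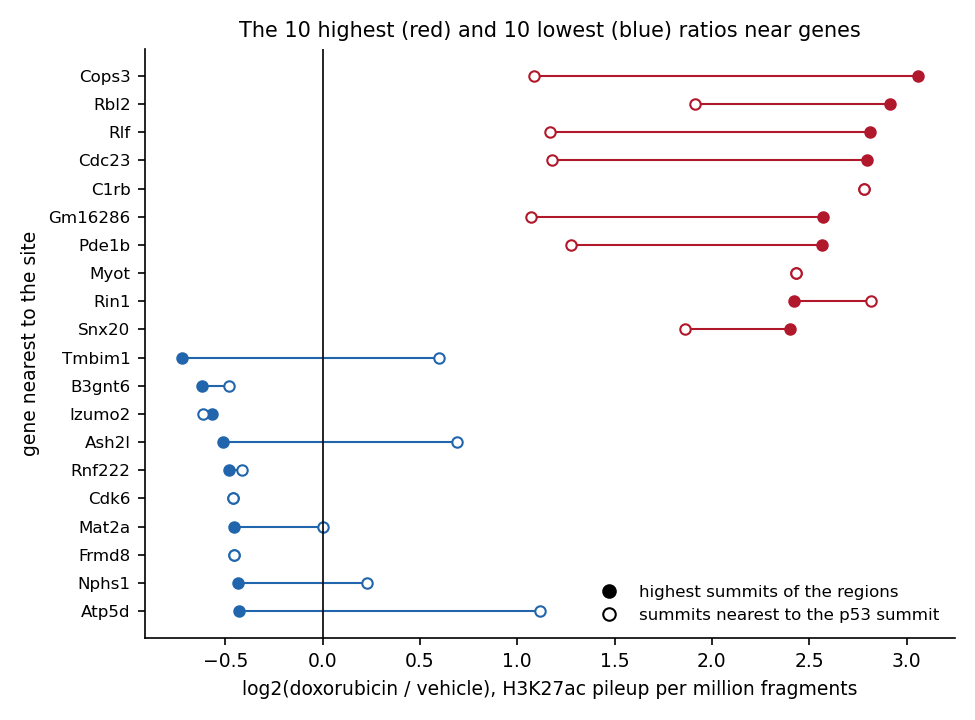
Log2 ratio of H3K27ac pileup per 1000000 fragments, doxorubicin over vehicle, at the 10 highest (red) and 10 lowest (blue) sites next to protein-coding genes, from the highest summits of the overlapping regions (filled) and from the summits nearest to the p53 summit (open). C1rb and Myot keep their values, while Tmbim1, Ash2l, Nphs1 and Atp5d move to the right of the line of equal values.

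Over all sites the choice of summit mattered less. The ratio moved by at least 1.5-fold at 443 of the 3599 sites (12.3%) and was identical at 1978. At the 2753 sites whose highest summits lay within 500 bp of p53 in both treatments, the median log2 ratio was 1.08 (interval 1.07 to 1.11) and 83.1% were at least 1.5-fold higher. Among the 40 sites of the p53 lists, the nearest summits gave at least 1.5-fold higher values at 27, a median of 1.64-fold, and lower values at 5. There Aen had the largest ratio, 11.7-fold, with 21 fragments in vehicle and 202 in doxorubicin. Klf4 (4.97-fold), Ephx1 and Ccng1 (4.58-fold, 49 and 185 fragments) also stood above Pmaip1 (4.48-fold). The nearest summit was taken in each treatment on its own, so a pair need not lie at the same position. At Aen it lay 339 bp from p53 in vehicle and 232 bp in doxorubicin. The highest vehicle summit there, with 131 fragments, lay 410 bp away. At Ccng1 it lay 150 bp and 395 bp away, and the highest vehicle summit, with 167 fragments, 447 bp. The distances also differed at Rin1 (18 bp and 326 bp) and Ckap2 (123 bp and 319 bp). Ddit4, a stress-induced inhibitor of mTORC1, went from 2.14-fold to 1.21-fold, and Btg1, an antiproliferative gene, from 1.84-fold to 1.12-fold. Siva1, an apoptosis gene, went from 2.22-fold to 0.650-fold (0.369 to 1.12). Its vehicle summit was the same, 521 bp from p53, while the doxorubicin summit changed from 566 bp to 228 bp. The ratio of Siva1 thus changed direction by the most among these p53 targets, but its nearest summits were not at matched distances.

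The H3K27ac regions around the sites were longer in doxorubicin. Their median length was 1232 bp in vehicle and 2241 bp in doxorubicin, and the doxorubicin region was the longer one at 85.3% of the sites, against 53.3% of the background regions, whose medians were 774 bp and 918 bp. The lists share a q cut-off but not a depth, and a region grows with its pileup, so length and height are not independent. The highest H3K27ac summit lay a median of 208 bp from the p53 summit in vehicle and 220 bp in doxorubicin. It fell inside the p53 region at 59.5% and 58.3% of the sites and within 500 bp of the p53 summit at 83.6% and 84.9%.

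The 10 strongest p53 sites next to genes had 13 to 112 fragments of H3K27ac in vehicle, on both sides of the median of 21 over all sites. The site 594 bp from Zfp61, a zinc finger gene (chromosome 7, 24289822 to 24291045), had a p53 fold enrichment of 227, with 45 fragments of H3K27ac in vehicle and 92 in doxorubicin (2.48-fold, counting interval 1.72 to 3.62). Ndufa7, a gene of mitochondrial complex I, had a fold enrichment of 206 and 61 and 100 fragments (1.99-fold). C1rb had 161, and Defb28, a defensin gene, had 130 with 13 and 22 fragments (2.05-fold, 0.989 to 4.43). Zmynd8, which encodes a reader of acetylated histones, had 124 with 24 and 58 fragments (2.93-fold). Jade3, Tmem184a, Rnpepl1, Klhdc1 and Ogn had fold enrichments of 82.4 to 108 and ratios from 1.36-fold to 3.42-fold. At the highest summits all 10 were thus higher in doxorubicin, as were 95.8% of all sites. Their intervals lay above 1 except at Defb28 and Ogn, and 68.5% of all sites had an interval above 1. At the summits nearest to p53, Defb28 had 13 and 17 fragments (1.58-fold, 0.725 to 3.55). Rnpepl1 had 112 and 120 there, and its interval, 0.995 to 1.695, then included 1. Zmynd8 had a larger ratio there, with 19 and 58 fragments, and the others kept their ratios.

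The 10 sites next to genes with the most H3K27ac in vehicle had ratios from 0.730-fold to 1.28-fold at the highest summits. They were picked by the denominator of the ratio, so their ratios are a description only. Sp1, which encodes a transcription factor, had 265 and 220 fragments, or 12.8 and 12.9 scaled fragments (1.01-fold, counting interval 0.838 to 1.21). Rps19 had 11.3 and 8.57 scaled fragments (0.756-fold, 0.611 to 0.934), and Ptma, which encodes prothymosin alpha, 9.69 and 8.75 (0.903-fold). Pgpep1, Zc3h11a, Mrpl45, Ccdc58 and Mcl1, which encodes an antiapoptotic BCL2 relative, were between 1.20-fold and 1.28-fold. Sox2 and Frmd8, described above, complete the 10. At the highest summits none of the 10 was 1.5-fold higher, whereas 56.9% of all sites with 36 or more vehicle fragments were. At the summits nearest to p53, Sp1 had 20 and 26 fragments (1.58-fold, 0.846 to 2.98) and Mcl1 114 and 159 (1.69-fold, 1.32 to 2.17).

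The strength of p53 binding was only weakly related to the ratio. In 4 equal groups by p53 fold enrichment, from lowest to highest, the median log2 ratio was 0.98, 1.04, 1.10 and 1.09, and 73.2%, 80.2%, 82.4% and 81.5% of the sites were at least 1.5-fold higher. Across the 3599 sites, which share their libraries and are no replicates, Spearman's rho was 0.09 between fold enrichment and log2 ratio, 0.11 with vehicle pileup and 0.19 with doxorubicin pileup. Vehicle and doxorubicin pileup went together, with a rho of 0.80, and the rho of vehicle pileup with the ratio, of which it is the denominator, was -0.46.

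Compared with other p53 sites without untagged and vehicle H3K9me3 regions, the sites with H3K27ac in both treatments had somewhat higher p53 enrichment and lay nearer to genes. The median fold enrichment was 8.47 (interval 8.21 to 8.73), against 7.37 (7.09 to 7.58) at the 2786 sites with H3K27ac in doxorubicin only and 6.49 (6.36 to 6.62) at the 2507 sites with H3K27ac in neither treatment. A fold enrichment of at least 20 was found at 18.0%, 12.1% and 6.06% of the sites. Within 1000 bp of a start lay 6.04%, 2.58% and 1.36%, and beyond 50000 bp 19.9%, 34.9% and 49.7%. Within an annotated gene lay 68.1%, 57.3% and 46.0%. For the H3K27ac regions without p53 the shares were 18.2% within 1000 bp of a start and 71.4% within a gene. A further 43 sites had H3K27ac in vehicle only. Without replicates, these differences were not tested.

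**Figure D5:**
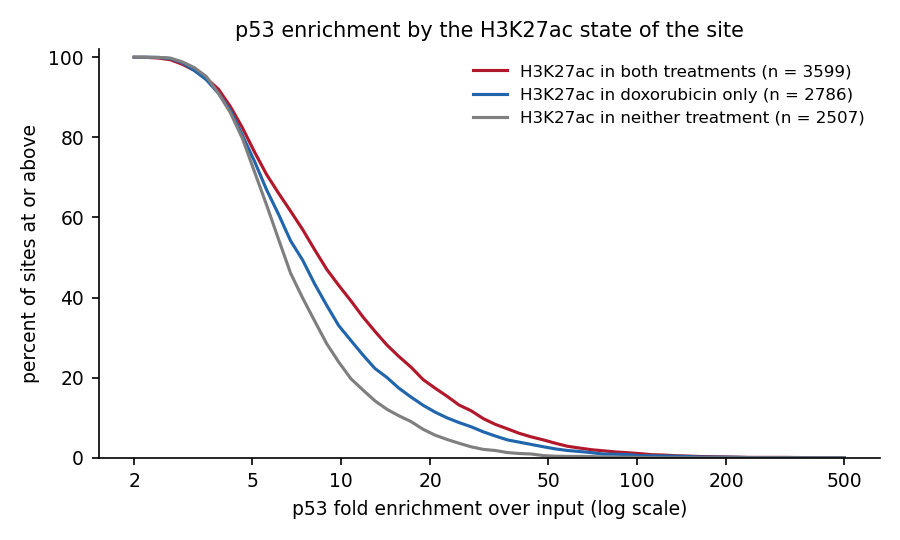
Percent of p53 sites (y axis) at or above each p53 fold enrichment over input (x axis, log scale) for sites with H3K27ac in both treatments (red), in doxorubicin only (blue) and in neither (grey). At a fold enrichment of 20 the curves stand at 18.0%, 12.1% and 6.06%.

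H3K9me3 was listed in doxorubicin, though by the rule not in vehicle, at 239 of the sites (6.64%), against 2.95% of the background regions, 8.69% of the p53 sites with H3K27ac in doxorubicin only and 5.98% of those with H3K27ac in neither treatment. Those sites had a median p53 fold enrichment of 20.2, against 8.15 at the others, and a median log2 ratio of H3K27ac of 1.04, against 1.05. Zfp61, Ndufa7, C1rb, Defb28, Jade3, Tmem184a and Klhdc1 were among them. On chromosome X, 23 sites had a median log2 ratio of 0.63, where the background regions of that chromosome had -0.14. The 9 sites on the contig added to mm10, of which the labels say nothing, had 1.04. An input region overlapped 4 sites.

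The rule has a threshold in the peak caller's q value. The least marked sites in vehicle were 106 with 9 fragments, or 0.436 scaled fragments, the lowest pileup of that list, and their median in doxorubicin was 1.17 scaled fragments. The sites with H3K27ac in doxorubicin only, just outside the rule, had a median doxorubicin pileup of 0.939 scaled fragments, and 176 of the 2786 had a vehicle region within 500 bp. A further 2347 p53 regions were left out by the untagged list (417) or the vehicle H3K9me3 list (2257), with 327 in both, and 1173 of these 2347 overlapped H3K27ac in both treatments. Among the p53 list genes this removed regions of Cdkn1a, Trp53inp1, Rgcc and Bid.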

How the data were processed

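ChIP-seq libraries of E14 mouse embryonic stem cells were used as the authors' 7 peak lists, each called on 2 pooled libraries, 14 in all. Reads were aligned with Bowtie2 2.2.6 and peaks called with MACS2 2.2.5, per the submitters' processing notes, on mm10 plus 1 further contig, as the file headers show. Paired-end fragments were kept once per position, and the limit on q was 0.05, as the headers give it. Per the file headers, histone peaks had no control and one background for the whole genome, while p53 peaks were set against input with local backgrounds. As signal, the authors deposited the summit pileup, a stack of fragments left unscaled for histones. The deposited fold enrichment is a ratio of pileup to background, and q values were deposited as −log10. Region lengths are in bp as deposited by the authors. The titles of the pair of p53 libraries hold the same number.

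Summits of 1 interval were joined into 1 region with the values of its highest summit, and of several overlapping regions the highest was taken. Pileups were divided by the fragments after filtering and multiplied by 1000000. Counting intervals are exact Clopper-Pearson intervals at 95%, medians have exact binomial order-statistic intervals, and shares have Wilson intervals. Since each list pools its libraries, replicates could not be tested and there are no p-values. Genes, starts and promoter sequences came from RefSeq tables of GRCm38.p6, which were matched by symbol for all but 5 of 322 symbols in 10 gene lists. Peak sequences outside promoter windows were not used here. Genes named by rank have an end nearest to and within 5000 bp of the p53 summit. They belong to the 10 sites with the highest ratio and the 10 with the lowest. Others belong to the 10 with the highest p53 fold enrichment and the 10 with the highest vehicle pileup. Members of the gene lists, and genes with several sites, have sites within 5000 bp of either gene end and need not be the nearest gene. Some members of the lists are not reported here. The sites and the lists were chosen with earlier results of these data known. Values at the nearest summits, genes with several sites, microRNAs and the regions left out were added after the values were seen. Scripts were tested on simulated data with planted values. Python 3.11.15, numpy 2.4.6, pandas 2.3.3, scipy 1.17.1 and matplotlib 3.10.9 were used.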

Additional observations from a re-analysis of the deposited data

How the results depend on the processing

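No paired analysis was possible because every list pools the libraries of its group, so that no replicate could be left out either. Of 68 values under alternative settings, 37 stayed within the interval of the reported value (for the number of sites, within 1.5 times) and 31 moved; none changed direction, and the causes were not tested. The number of sites ran from 2415 to 3615. The median log2 ratio of 1.05, the share at least 1.5-fold higher of 79.4%, the share at least 1.5-fold lower of 0.417% and the distance from the background of 0.87 became 1.03, 77.8%, 0.695% and 0.91 with the summit nearest to p53, 0.84, 67.0%, 1.06% and 0.84 with fold enrichment in place of pileup, and 1.01, 76.1%, 0.968% and 0.84 with H3K27ac regions merged within 1000 bp. The first 3 became 0.87, 68.4% and 1.06% after centring on the background median, and 0.78, 63.6% and 1.39% without depth scaling, which lowers the background median from 0.19 to -0.09. A −log10 q of at least 5 in the H3K27ac lists gave a median of 0.97, 75.8% higher and a p53 fold enrichment of 8.83. The same limit in the p53 list gave 8.83, leaving out doxorubicin H3K9me3 gave 8.15, and an H3K27ac summit inside the p53 region gave 10.95 and 0.166% lower. With 50% overlap the distance from the background was 0.76. Among settings added after seeing the data, a background taken from doxorubicin regions gave a distance of 1.02. At least 20 vehicle fragments gave 0.88, 70.8%, 0.770% and 1.02, and with 1 site per H3K27ac region the median ratio and the share higher, the values computed for it, stayed within their intervals. Depth limits single sites, as at Rbl2, whose 9 vehicle fragments gave a counting interval of 3.70 to 17.3.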

Other observations

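MicroRNA genes were next to a few of the sites. A site 66 bp from the hairpin of Mir25, in the cluster with Mir93 and Mir106b on chromosome 5, had 110 fragments of H3K27ac in vehicle and 83 in doxorubicin (0.914-fold, counting interval 0.679 to 1.23). The site 471 bp from Mir192 and 675 bp from Mir194-2 on chromosome 19 had 39 and 53 fragments (1.65-fold, 1.07 to 2.56). The site 858 bp from Mir205 had 22 and 46 fragments (2.53-fold, 1.49 to 4.42). The mature forms, from RefSeq (GRCm38.p6), are shown with the seed (bases 2 to 8) in capitals because it sets the targets of a microRNA, and miR-93-5p and miR-106b-5p share theirs.
miR-93-5p: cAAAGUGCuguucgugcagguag
miR-106b-5p: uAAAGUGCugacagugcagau
miR-192-5p: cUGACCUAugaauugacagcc
miR-194-5p: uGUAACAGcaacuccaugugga
miR-205-5p: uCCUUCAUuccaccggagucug

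Mlf2, Snx20 and Susd6 had 3 sites each within 5000 bp of a gene end, more than other protein-coding genes. At Susd6, a p53-inducible gene, the 3 sites had 51 and 78, 23 and 62, and 29 and 55 fragments in vehicle and doxorubicin, or 1.85-fold, 3.27-fold and 2.30-fold. At the summits nearest to p53 the first had 43 and 38 fragments (1.07-fold, 0.674 to 1.70), the second 4.42-fold, and the third was the same. At Snx20 they had 2.48-fold, 5.29-fold and 5.29-fold, since 1 doxorubicin region of 11296 bp covered all 3. At Mlf2 they had 1.94-fold and, in 1 shared region, 1.45-fold.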
